A study of Saccharomyces cerevisiae with 18 samples.

Results

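The genes of Saccharomyces cerevisiae chromosome IX were followed in 3 engineered strains at 2 times of culture. Members were chosen by arm and by summed count. A member was any gene identifier of the left arm (YIL) or the right arm (YIR) with a summed raw count of 180 or more over the 18 libraries, leaving out 10 named identifiers. The chromosome itself was selected on the level of its genes in LP118 relative to the other strains. The rule took 212 of the 241 chromosome IX identifiers in the tables, which list 6600 genes in all. Another 19 fell under the count minimum, and 166 members lay on the left arm and 46 on the right. The libraries came from total RNA of LP118, LP104-17 and LP085-Vc, strains of BY4742 background. The labels call all 3 diosgenin producers, diosgenin being a steroid of plants. Each strain was grown from an optical density of 0.1 in 15 mL of synthetic dextrose medium with 2% glucose at 30 °C and 250 rpm, and was harvested at 24 h and at 6 h. Each strain and time had 3 libraries. The labels give no genotype and no introduced genes. They do not say whether the 3 libraries of a group are separate cultures, so a p-value covers only the differences seen among these samples, and those could be technical.

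Yeast strains can carry an extra copy of a single chromosome, a state called aneuploidy or disomy, and engineered laboratory strains are known to acquire one. With an additional chromosome, most of its genes usually give more transcript, roughly in proportion to their copy number, while single genes can lie well off that proportion because their promoters respond to growth or stress. DNA copy number was not measured in these data. In bulk RNA, fewer cells with a transcript and less of it per cell cannot be told apart.

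Total counts ran from 5117869 to 7548113 per library. BY4742 is a haploid of mating type alpha. The 4 alpha-specific marker genes summed to between 1562 and 1859 CPM (counts scaled to library size) in LP118 at 24 h, against 1161 to 1290 CPM in LP104-17 and 467 to 540 CPM in LP085-Vc, and to between 1554 and 1932 CPM in every strain at 6 h. Most of that sum was MF(ALPHA)1, an alpha-factor gene. At 6 h, SAG1, alpha-agglutinin, averaged 130.4 ± 4.4 CPM in LP118, against 279.8 ± 19.5 CPM in LP104-17 and 282.7 ± 18.4 CPM in LP085-Vc (SD, n = 3). MF(ALPHA)2, the other alpha-factor gene, averaged 32.3 ± 1.8 CPM in LP118, against 97.0 ± 1.7 and 76.8 ± 3.1 CPM in LP104-17 and LP085-Vc. MF(ALPHA)1 and STE3 were not lower in LP118 at 6 h, with 1319 ± 120 and 183.9 ± 4.3 CPM. They averaged 1267 ± 141 and 175.3 ± 8.6 CPM in LP104-17, and 1237 ± 114 and 167.3 ± 14.2 CPM in LP085-Vc. At 24 h SAG1 and MF(ALPHA)2 had their highest means in LP118, with 165.6 ± 34.5 and 28.3 ± 2.4 CPM. They averaged 79.1 ± 7.6 and 16.7 ± 1.7 CPM in LP104-17, and 84.9 ± 2.2 and 18.5 ± 5.4 CPM in LP085-Vc. The 6 a-specific genes summed to between 91.8 and 105 CPM in LP118 at 24 h, against 64.4 to 70.4 CPM in LP104-17 and 82.5 to 98.8 CPM in LP085-Vc. At 6 h they summed to 55.4 to 68.9 CPM in LP118, 48.6 to 51.1 CPM in LP104-17 and 45.2 to 51.1 CPM in LP085-Vc. One of those 6 genes, BAR1, lies on chromosome IX and is among the identifiers left out by the rule. BAR1 averaged 36.4 ± 7.6 CPM in LP118, 8.7 ± 2.1 CPM in LP104-17 and 9.4 ± 1.9 CPM in LP085-Vc at 24 h. At 6 h it averaged 23.1 ± 4.4, 7.8 ± 1.6 and 6.2 ± 1.2 CPM in those strains. STE6, another large part of the sum, was not higher in LP118, with 39.9, 40.3 and 61.2 CPM at 24 h and 26.4, 31.6 and 29.9 CPM at 6 h. The 4 haploid-specific genes summed to between 276 and 315 CPM in LP118 at 24 h. They summed to 316 to 332 CPM in LP104-17 and 438 to 485 CPM in LP085-Vc. At 6 h they summed to 324 to 335 CPM in LP118, without overlap with the other strains. Those sums were 413 to 448 CPM in LP104-17 and 429 to 447 CPM in LP085-Vc. GPA1 averaged 131.5 CPM in LP118 at 6 h, above 118.2 CPM in LP104-17 and 106.1 CPM in LP085-Vc. At 24 h RME1 and STE18 averaged 296.6 and 33.9 CPM in LP085-Vc, against 69.9 and 18.4 CPM in LP118. GPA1 and STE4 were lower in LP085-Vc, with 64.96 and 67.2 CPM against 125.7 and 79.9 CPM in LP118. No marker was at 0 in any group. The part of these markers in the results below was not tested.

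The members as a group took a larger share of the reads in LP118. Their counts made up 4.26 ± 0.04% of all counts in LP118 at 24 h (SD, n = 3 for each group), against 2.29 ± 0.01% in LP104-17 and 2.44 ± 0.01% in LP085-Vc. At 6 h the share was 4.65 ± 0.09% in LP118, against 2.12 ± 0.02% in LP104-17 and 2.07 ± 0.02% in LP085-Vc. The share in LP118 was thus 1.86 times that of LP104-17 and 1.75 times that of LP085-Vc at 24 h, and 2.19 and 2.24 times theirs at 6 h. No LP118 library overlapped a library of the other strains.

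**Figure D1:**
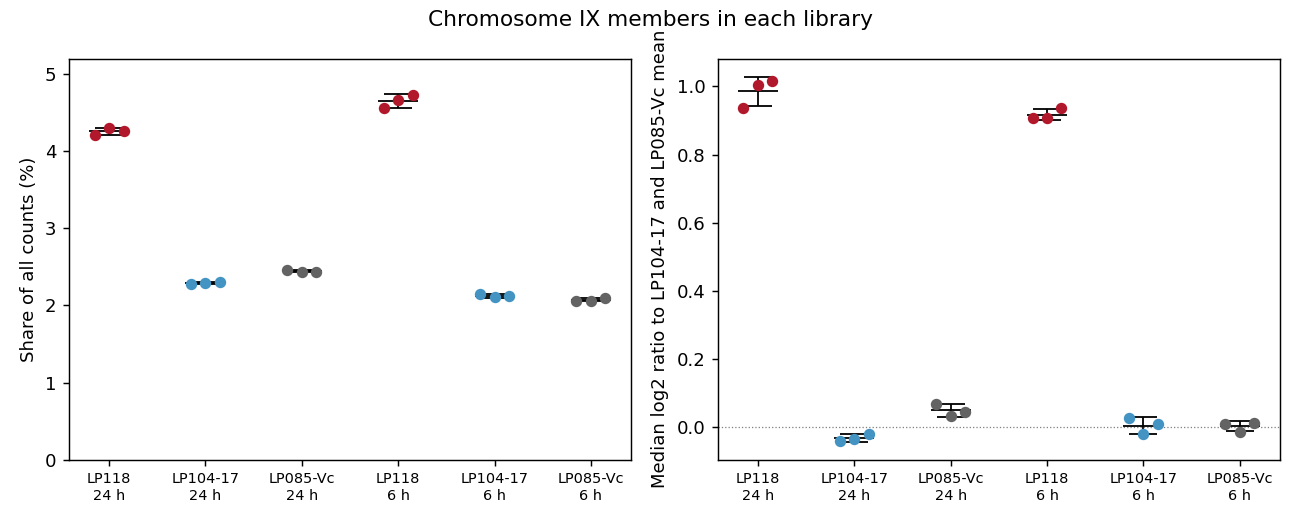
Left, the percent of each library's counts that fell on the 212 members; right, the median over members of log2 CPM in a library minus the mean of LP104-17 and LP085-Vc at the same time (a pseudocount of 0.1 CPM was added). Points are libraries, and bars are the group mean ± SD (n = 3); the 6 LP118 libraries have medians between 0.91 and 1.02 while the other 12 lie near 0.

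The median log2 fold change of the members was 1.02 for LP118 over LP104-17 and 0.998 for LP118 over LP085-Vc at 24 h, and 0.92 and 0.88 at 6 h, where the medians of all 6131 tested genes were 0.03, -0.01, -0.03 and -0.04. A log2 fold change of 1 is a doubling. Single LP118 libraries had member medians of 0.94, 1.01 and 1.02 at 24 h and of 0.91, 0.91 and 0.94 at 6 h. These comparisons are those that singled out the chromosome, so their values are a description and carry no test.

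At 24 h, 182 of the 212 members had a higher fitted level in LP118 than in LP104-17 (a log2 fold change above 0), as did 50.9% of all tested genes. Against LP085-Vc at 24 h the number was 165 members, beside 49.9% of all tested genes. At 6 h it was 192 against LP104-17, beside 48.3%, and 186 against LP085-Vc, beside 47.6%. In all 4 comparisons, 154 members had a log2 fold change above 0, as did 29.6% of all tested genes. At both times the 3 LP118 libraries lay above every library of both other strains for 132 members, and the same held for 18.1% of all tested genes. They lay below every such library for 6 members, and for 17.7% of all tested genes.

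To describe each gene with 1 number, its 4 log2 fold changes of LP118 over the other strains were averaged, and this mean is called its shift. The members had a median shift of 0.95, an interquartile range of 0.998 and an SD of 1.02. The 5600 tested genes outside chromosomes V and IX had a median shift of -0.01, an interquartile range of 1.02 and an SD of 0.99. The members were therefore displaced by about 1 log2 unit with a spread close to that of genes on other chromosomes. Of the members, 106 (50%) lay within 0.5 of their own median, against 49.4% of the genes outside chromosomes V and IX.

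**Figure D2:**
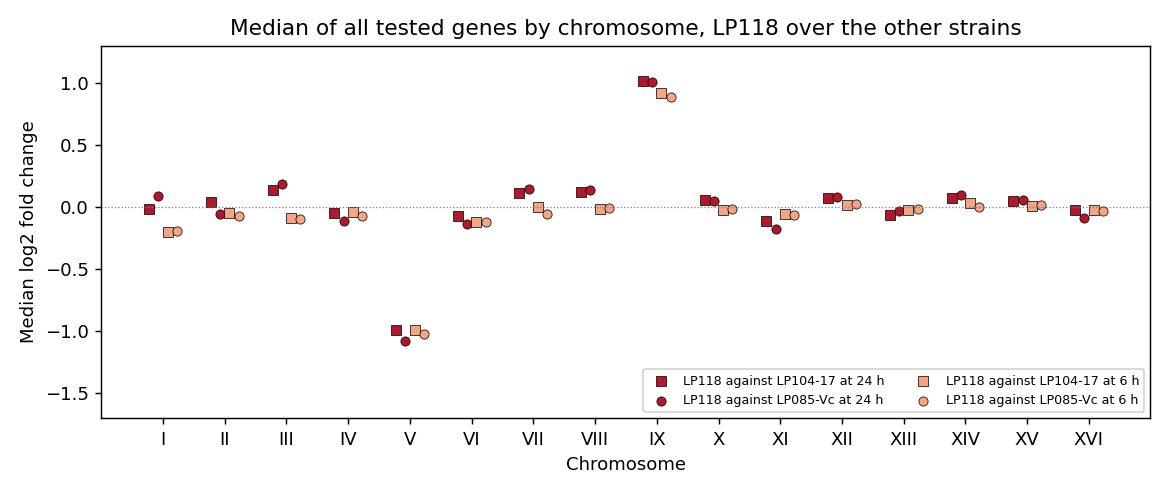
Median log2 fold change of all tested genes on each of the 16 nuclear chromosomes, LP118 over each other strain at each time (squares, over LP104-17; circles, over LP085-Vc; dark, 24 h; light, 6 h). Chromosome IX stands between 0.89 and 1.02, chromosome V between -1.08 and -0.99, and the other 14 chromosomes between -0.20 and 0.19.

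With every tested gene of a chromosome included, the median shift was 0.96 on chromosome IX and -1.01 on chromosome V. The other 14 chromosomes ran from -0.08 on XI to 0.09 on III. No test was made of these medians, since chromosome IX was chosen for its value.

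Along the chromosome the median shift was above 0 on both arms. In R64, chromosome IX has 439888 bases with its centromere at 355721 to 355745, and 193 members have a position there, from CSS1 at 23119 to YIR042C ending at 435983. The median shift was 0.94 on the left arm (n = 166 members) and 0.99 on the right arm (n = 46). In 9 consecutive bins of positioned members, 8 of them with 20 members and the last with 33, the bin medians ran from 0.72 to 1.21. The lowest was that of the first bin, at 23119 to 69528, and the highest that of its neighbour, at 69791 to 117644.

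**Figure D3:**
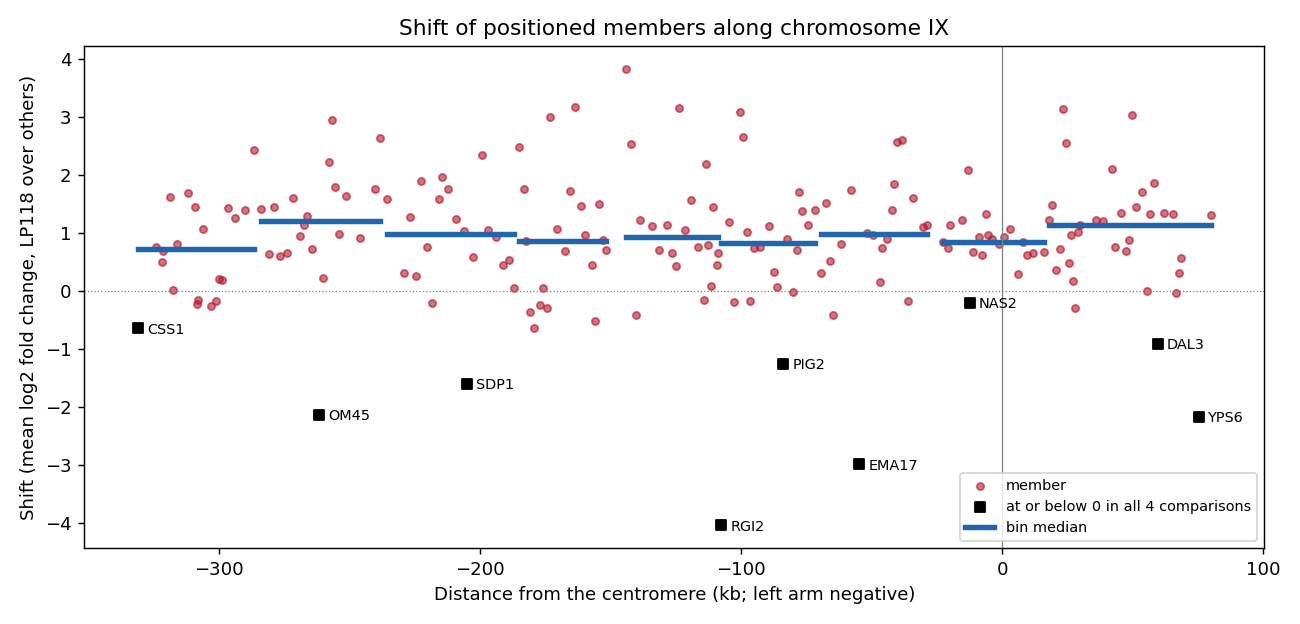
Shift of the 193 positioned members (mean of 4 log2 fold changes, LP118 over LP104-17 and LP085-Vc at 24 h and 6 h) against distance from the centromere in kb, with the left arm negative; blue bars are medians of the 9 bins. The bars stay between 0.72 and 1.21, and the 9 black squares, the members at or below 0 in all 4 comparisons, are scattered among raised neighbours.

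Within 50 kb of the left end, 12 members had a median shift of 0.72, and within 50 kb of the right end, 21 members had a median of 1.22. The 52 members within 50 kb of the centromere had a median of 0.94. The genes that flank the centromere were YIL001W, with a shift of 0.81, and SGN1, with 0.92. At the outer ends, CSS1 on the left had a shift of -0.65 and YIR042C on the right one of 1.31.

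The right arm lay above the left at 24 h and below it at 6 h. Right-arm members had medians of 1.26 over LP104-17 and 1.20 over LP085-Vc at 24 h, and 0.82 and 0.77 at 6 h. Left-arm members had 0.98 and 0.95 at 24 h, and 0.96 and 0.89 at 6 h. The difference between the arms was not tested, since the 46 right-arm genes are few and neighbouring genes are not replicates.

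The shift showed almost no rank relation to position or coding length. Across positioned members, Spearman's rho between shift and distance from the centromere was -0.01 (n = 193). Across all members it was 0.05 with coding length, against 0.11 over the 5600 genes outside chromosomes V and IX. With the mean level in the other strains, on the log2 scale of FPKM, a level scaled by length and depth, it was -0.30 (n = 212), against -0.28 elsewhere. The 71 members with the lowest level had a median shift of 1.23, the middle 70 one of 0.94 and the 71 with the highest level one of 0.70. The level in the other strains is also subtracted within the shift, so a negative relation to that level is partly built in. These are correlations across genes of the same libraries, and genes are not independent replicates.

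The members nearest to the median shift, among those averaging at least 50 CPM, are near it in the mean of 4 values, not in each comparison. IRR1, a cohesin subunit, had 162, 182 and 174 CPM in LP118 at 24 h, against 124, 118.1 and 114 CPM in LP104-17 and 98.45, 108 and 113 CPM in LP085-Vc. At 6 h IRR1 had 207, 201 and 200 CPM in LP118, against 96.2, 66.7 and 89.8 CPM in LP104-17 and 88.6, 76.3 and 76.8 CPM in LP085-Vc. Every LP118 library lay above the libraries of the other strains at its time. FKH1, a forkhead transcription factor of mitotic genes, averaged 68.4 ± 4.7 CPM in LP118, 54.9 ± 7.4 CPM in LP104-17 and 34.1 ± 4.1 CPM in LP085-Vc at 24 h. At 6 h FKH1 averaged 150 ± 9.4 CPM in LP118, 63 ± 5.4 CPM in LP104-17 and 59.6 ± 2.2 CPM in LP085-Vc (SD, n = 3). The bud site landmark gene AXL2, the protein disulfide isomerase gene EPS1, CMI7 and YIL108W had shifts of 0.94, 0.93, 0.97 and 0.93. Over LP104-17 at 24 h, FKH1 and AXL2 had log2 fold changes of only 0.32 and 0.14, where the median of the members was 1.02. Over LP085-Vc at 24 h they had 1.01 and 0.96. At 6 h they had 1.25 and 1.29 over LP104-17, and 1.33 and 1.40 over LP085-Vc.

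Of the members, 32 (15.1%) had a shift of 0 or below. Among the 5600 genes outside chromosomes V and IX, 11.6% lay as far below their own median. Among the 193 positioned members, 29 had a shift of 0 or below, and the longest run of such neighbours was 3 genes, YIL102C, XBP1 and SGA1. At the other end, 24 members (11.3%) had a shift of at least 2 times the median, against 14.8% of the genes elsewhere as far above theirs.

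In all, 9 members (4.25%) were at or below 0 in all 4 comparisons, where 31.1% of all tested genes were. They were RGI2, EMA17, YPS6, OM45, SDP1, PIG2, DAL3, CSS1 and NAS2. Their 17 positioned neighbours all had shifts above 0, from 0.06 for MET30 beside PIG2 to 2.08 for URM1 beside NAS2, with a median of 0.89. On the scale of log2(FPKM + 1), 11 members were at or below 0 in all 4 comparisons.

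**Figure D4:**
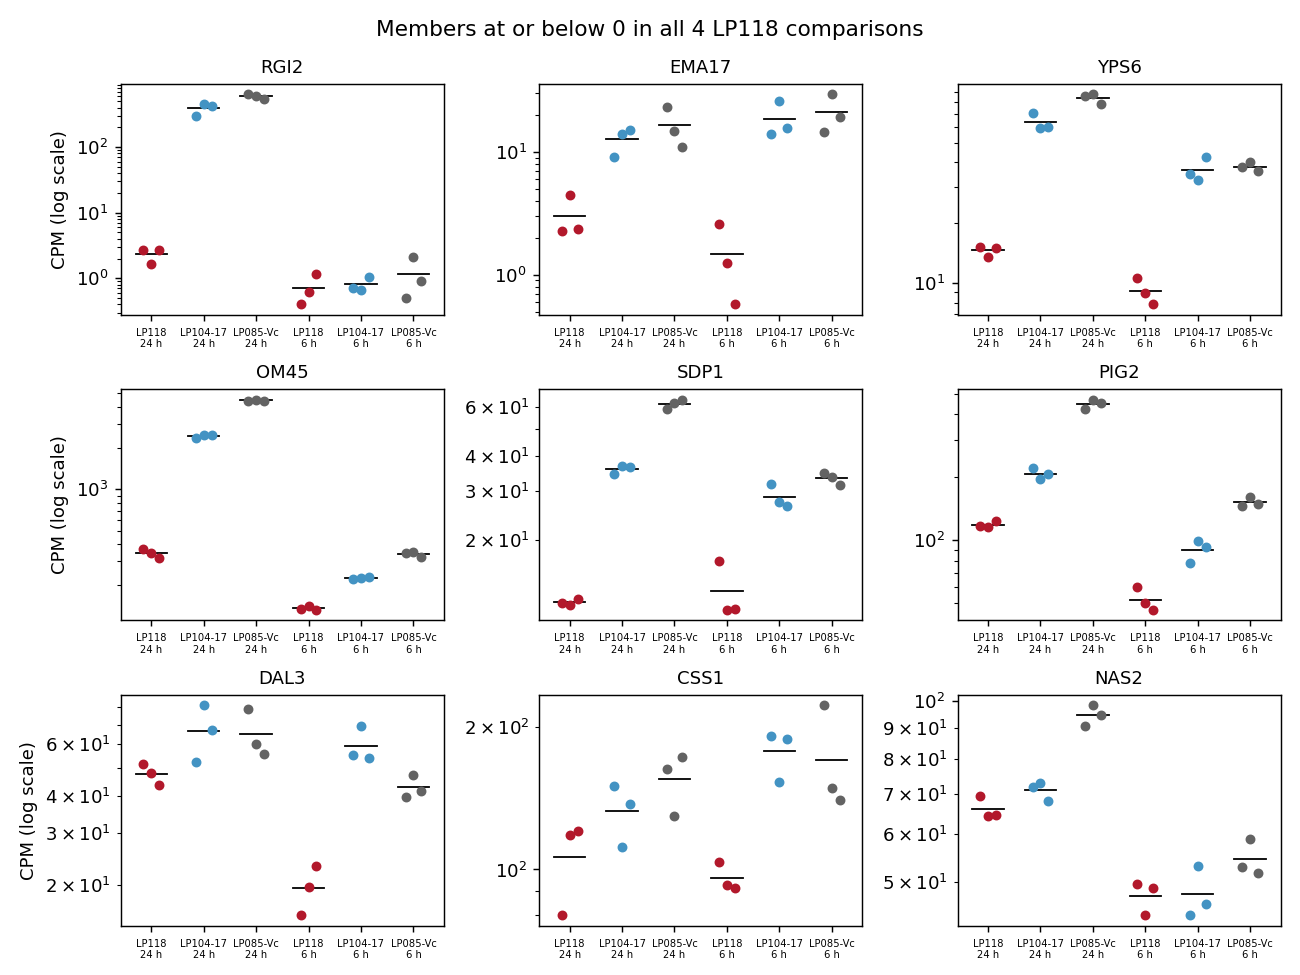
CPM on a log scale of the 9 members at or below 0 in all 4 LP118 comparisons, in the 18 libraries; points are libraries and lines are group means (n = 3), with LP118 in red, LP104-17 in blue and LP085-Vc in grey. RGI2 and OM45 reach 642 and 4488 CPM in single LP085-Vc libraries at 24 h, while no LP118 library exceeds 2.74 CPM for RGI2 or 367 CPM for OM45.

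RGI2 (YIL057C; 247902 to 248396, minus strand), named for its induction in respiratory growth, had the lowest shift, -4.05. It had 2.74, 1.66 and 2.68 CPM in LP118 at 24 h, against 299, 460 and 420 CPM in LP104-17 and 642, 605 and 551 CPM in LP085-Vc. At 6 h it was near the limit of detection in every strain, with summed counts over 3 libraries of 11 in LP118, 16 in LP104-17 and 24 in LP085-Vc. The gap lay at 24 h, where the log2 fold change was -7.38 over LP104-17 and -7.99 over LP085-Vc. The neighbours YIL059C and VHR1 had shifts of 0.65 and 1.19.

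OM45 (YIL136W; 93619 to 94800, plus strand) encodes an abundant protein of the mitochondrial outer membrane. It had 367, 346 and 319 CPM in LP118 at 24 h, against 2349, 2474 and 2478 CPM in LP104-17 and 4418, 4488 and 4413 CPM in LP085-Vc. At 6 h it had 136, 142 and 133 CPM in LP118, against 223, 226 and 229 CPM in LP104-17 and 346, 348 and 325 CPM in LP085-Vc. The 3 strains lay in the same order at both times with no overlap. PIG2 (YIL045W; 271161 to 272777, plus strand), a putative subunit that directs a protein phosphatase to glycogen synthase, kept that order too. PIG2 averaged 119 ± 4.8 CPM in LP118, 208 ± 14 CPM in LP104-17 and 446 ± 23 CPM in LP085-Vc at 24 h, and 52.1 ± 6.8, 90.01 ± 11 and 152 ± 7.6 CPM in those strains at 6 h (SD, n = 3).

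SDP1 (YIL113W; 150559 to 151188, plus strand), a stress-inducible phosphatase of a mitogen-activated protein kinase, averaged 11.9 ± 0.35 CPM in LP118, 35.9 ± 1.2 CPM in LP104-17 and 61.4 ± 2.5 CPM in LP085-Vc at 24 h. YPS6 (YIR039C; 430498 to 432111, minus strand), an aspartyl protease, averaged 14.6 ± 0.91, 63.2 ± 6.1 and 83.6 ± 4.8 CPM in those strains at 24 h. EMA17 (YIL029C; 300829 to 301257, minus strand) averaged 3.03 ± 1.2, 12.7 ± 3.3 and 16.4 ± 6.3 CPM at 24 h (SD, n = 3 for each). In these 3 genes every LP118 library lay below every library of the other strains at both times. NAS2, a chaperone of proteasome assembly, had a shift of only -0.21, and its LP118 libraries at 6 h, with 49.5, 44.0 and 48.8 CPM, overlapped those of LP104-17, with 44.0, 53.2 and 45.9 CPM. CSS1, close to the left telomere, averaged 106 ± 23 CPM in LP118, 133 ± 20 CPM in LP104-17 and 155 ± 23 CPM in LP085-Vc at 24 h, where the libraries of LP118 and LP104-17 overlapped.

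Upstream sequences of OM45 and PIG2 are shown because both genes belong to the 3 of these 9 genes whose windows held the stress response element AGGGG at least 2 times. Each window holds 300 bases of R64, the first lying 400 bases before the start codon, read 5′ to 3′ on the gene's strand, with AGGGG or its reverse complement CCCCT in capitals. The window of OM45 is chrIX:93219-93518 on the plus strand, and that of PIG2 is chrIX:270761-271060 on the plus strand.
OM45: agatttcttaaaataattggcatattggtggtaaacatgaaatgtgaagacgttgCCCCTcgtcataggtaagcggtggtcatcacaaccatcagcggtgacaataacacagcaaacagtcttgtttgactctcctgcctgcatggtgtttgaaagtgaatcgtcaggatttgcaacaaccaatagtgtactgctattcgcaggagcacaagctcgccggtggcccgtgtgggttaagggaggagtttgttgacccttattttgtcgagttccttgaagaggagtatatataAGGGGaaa
PIG2: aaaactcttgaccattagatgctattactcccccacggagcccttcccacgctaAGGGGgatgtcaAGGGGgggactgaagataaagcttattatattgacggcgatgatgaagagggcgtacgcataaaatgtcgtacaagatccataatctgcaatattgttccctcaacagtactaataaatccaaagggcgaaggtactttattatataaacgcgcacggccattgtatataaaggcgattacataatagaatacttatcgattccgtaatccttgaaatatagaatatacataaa
At least 1 match on either strand was present in 5 of the 9 windows, in 63 of the 193 windows of positioned members (32.6%) and in 23.5% of 6001 windows of protein-coding genes in R64. At least 2 matches were present in 3 of the 9 (OM45, SDP1 and PIG2), against 6.22% of the members' windows and 4.12% of all windows. RGI2 had none. Other motifs were also present in these 9 windows. The GATA factor motif GATAAG was in 4 of them, against 19.2% of the members' windows and 13.95% of all windows. The Gcn4 motif TGACTC was in 2, against 10.9% and 8.47%. A match is a description of the letters and not a sign of binding.

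By the sign of the fitted log2 fold change alone, some members lay above the other strains at one time and not at the other. In 15 members (7.08%; 8.16% of all tested genes) LP118 was above both strains at 6 h and at or below both at 24 h. The 15 included XBP1, a stress-induced repressor, GUT2, the mitochondrial glycerol-3-phosphate dehydrogenase, SUC2, the secreted invertase, DAL2, and MET30, an F-box protein of sulfur regulation. COA1, FMC1, FIS1 and MAM33, which encode mitochondrial proteins, were also among them and were singled out after their values were seen. The sign can rest on a small value: COA1 at 6 h had log2 fold changes of 0.12 over LP104-17 and 0.04 over LP085-Vc, with overlapping libraries. The opposite pattern held for 5 members (2.36%; 11.3% of all genes), namely MET28, RPI1, ARC15, YIL028W and YIR016W.

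XBP1 averaged 147 ± 37 CPM in LP118, 272 ± 43 CPM in LP104-17 and 539 ± 40 CPM in LP085-Vc at 24 h. At 6 h it averaged 48.9 ± 3.0, 42.6 ± 9.4 and 48.9 ± 8.8 CPM in those strains, where the groups overlapped. GUT2 averaged 222 ± 17 CPM in LP118, 418 ± 35 CPM in LP104-17 and 579 ± 44 CPM in LP085-Vc at 24 h, and 128 ± 5.1, 78.0 ± 8.3 and 88.4 ± 11 CPM at 6 h (SD, n = 3). LP118 was thus the lowest strain for GUT2 at 24 h and the highest at 6 h.

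Of the 10 members with the largest shifts, 5 are on the list of ribosome biogenesis and related genes and 3 are ribosomal protein genes. These lists hold 7 and 5 of the 212 members. They were drawn up with earlier results of these data known, so the overlap is a description and was not tested. The 10 largest were AIR1 (3.83), UTP25 (3.18), RPS24B (3.15), SQT1 (3.13), GPP1 (3.08), YVH1 (3.04), BMT5 (2.99), RPL16A (2.94), RPL34B (2.66) and RRT14 (2.64). AIR1 (YIL079C; 210923 to 212005, minus strand), an RNA-binding subunit of the TRAMP complex that marks nuclear RNA for decay, had 162, 166 and 165 CPM in LP118 at 24 h, against 9.98, 13.5 and 13.5 CPM in LP104-17 and 5.41, 5.16 and 5.44 CPM in LP085-Vc. At 6 h it had 210, 198 and 190 CPM in LP118, against 25.98, 25.04 and 24.7 CPM in LP104-17 and 15.5, 15.5 and 15.7 CPM in LP085-Vc. The libraries of a strain differed little and the strains stood in the order LP118, LP104-17, LP085-Vc at both times.

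UTP25 (YIL091C; 191030 to 193195, minus strand), a factor of the small subunit processome, averaged 240 ± 13 CPM in LP118, 67.8 ± 6.2 CPM in LP104-17 and 12.7 ± 2.2 CPM in LP085-Vc at 24 h. At 6 h it averaged 303 ± 29, 37.4 ± 2.3 and 24.4 ± 0.49 CPM in those strains. GPP1 (YIL053W; 255115 to 255867, plus strand), the glycerol-1-phosphatase of glycerol synthesis, averaged 1304 ± 177 CPM in LP118, 86.0 ± 6.1 CPM in LP104-17 and 67.9 ± 5.8 CPM in LP085-Vc at 24 h, and 3766 ± 314, 895 ± 19 and 890 ± 33 CPM at 6 h (SD, n = 3). In FPKM, GPP1 had the highest level of all members in LP118 at 6 h (4649 ± 242), followed by RPL2B (3566 ± 706).

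Ribosomal protein genes outside chromosome IX also had a median shift above 0, and the 5 on chromosome IX had a higher one. RPS24B, RPL16A, RPL34B, RPL2B and RPL40A had shifts of 3.15, 2.94, 2.66, 2.59 and 2.42, with a median of 2.66. Another 123 cytosolic ribosomal protein genes outside chromosomes V and IX had a median of 1.73 (interquartile range 1.51 to 2.02), and 6 on chromosome V had one of 1.06. The difference between the chromosome IX median and that of the 123 genes was 0.93. RPS24B had 907, 815 and 817 CPM in LP118 at 24 h, against 149, 141 and 142 CPM in LP104-17 and 31.5, 31.8 and 31.7 CPM in LP085-Vc.

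Each of the 5 has a close copy on another chromosome, and in each pair the chromosome IX copy had the larger shift. RPL2B stood at 2.59 and RPL2A on chromosome VI at 2.10, RPL16A at 2.94 and RPL16B on XIV at 2.14, and RPL40A at 2.42 and RPL40B on XI at 1.71. RPL34B stood at 2.66 and RPL34A on chromosome V at 0.95, and RPS24B at 3.15 and RPS24A on V at 0.76. The gaps of 1.71 and 2.39 in the pairs with a chromosome V partner were wider than those of 0.49 to 0.80 in the other pairs. How reads were shared between such copies is not given in the sources used here, so values of single copies are uncertain.

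Genes of other kinds showed the displacement from a lower base. The 6 members annotated as permeases or transporters had a median shift of 1.23, against 0.06 for 130 such genes outside chromosomes V and IX. The 18 members with no named product had a median of 0.85, against -0.04 for 406 such genes. These are differences of 1.17 and 0.88 in the median, beside 0.93 for ribosomal proteins.

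Within functional lists drawn up for these arms, the amount by which members lay above 0 differed widely. All 7 members of ribosome biogenesis (AIR1 not among them) were above both strains at both times, as were 29.6% of all tested genes. Their shifts ran from 2.49 for SHQ1, a snoRNP assembly factor, to 3.18 for UTP25. Ribosome biogenesis genes of other chromosomes were not compared here, so these shifts are not read as particular to chromosome IX. The 13 members of stress, storage and respiratory growth had a median shift of 0.02 and a range from -4.05 for RGI2 to 3.08 for GPP1.

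Among 6 members of amino acid and sulfur metabolism, the histidine genes HIS6 and HIS5 had shifts of 1.85 and 1.75 and MET18 one of 1.76, while MET28 had -0.30 and MET30 0.06. The 7 members of transcription and cell cycle had a median of 0.98, with STH1, the ATPase of the RSC remodelling complex, at 1.58 and MOB1 at 0.53. The 7 of signalling and transport had a median of 1.23, from -0.22 for RPI1 to 1.90 for the transporter gene QDR2. Of 6 genes of the cell wall and subtelomeres, 4 were members, with FLO11, the flocculin of invasive growth, at 1.22 and the cell wall gene SIM1 at 1.28, beside the low CSS1 and YPS6. PAU14, with 0 counts, and PAU15, with 34, were under the count minimum.

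The allantoin cluster shows how far neighbouring genes could part. Its 6 adjacent genes on the right arm let yeast use allantoin as a nitrogen source and are known targets of GATA factors. DAL7, a malate synthase gene, DAL4, the allantoin permease, DAL1, allantoinase, and DCG1 had shifts of 1.85, 1.71, 1.45 and 1.33. DAL2, allantoicase, stood at 0.00 and DAL3, ureidoglycolate hydrolase, at -0.92.

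DAL4 had 58.0, 69.7 and 61.2 CPM in LP118 at 24 h, against 11.7, 17.9 and 11.1 CPM in LP104-17 and 13.3, 10.9 and 10.9 CPM in LP085-Vc. DAL3 had 51.6, 48.0 and 43.5 CPM in LP118 at 24 h, against 52.1, 81.5 and 66.9 CPM in LP104-17 and 78.8, 59.98 and 55.8 CPM in LP085-Vc. DAL2 averaged 85.7 ± 5.6 CPM in LP118, 118.4 ± 5.0 CPM in LP104-17 and 113 ± 5.7 CPM in LP085-Vc at 24 h (SD, n = 3). LP118 was thus the highest strain for DAL4 and the lowest for DAL2, while for DAL3 the highest LP118 library lay just under the lowest LP104-17 library.

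The upstream windows of 4 genes in the cluster are shown, those of the high DAL4 and DAL7 and of the low DAL2 and DAL3, with the GATA motif GATAAG or its reverse complement CTTATC in capitals. Each again holds the 300 bases of R64 that start 400 bases before the start codon and is read 5′ to 3′ on the gene's strand. The windows are chrIX:408068-408367 on the plus strand for DAL4, chrIX:414780-415079 on the minus strand for DAL7, chrIX:410407-410706 on the plus strand for DAL2 and chrIX:415718-416017 on the minus strand for DAL3.
DAL4: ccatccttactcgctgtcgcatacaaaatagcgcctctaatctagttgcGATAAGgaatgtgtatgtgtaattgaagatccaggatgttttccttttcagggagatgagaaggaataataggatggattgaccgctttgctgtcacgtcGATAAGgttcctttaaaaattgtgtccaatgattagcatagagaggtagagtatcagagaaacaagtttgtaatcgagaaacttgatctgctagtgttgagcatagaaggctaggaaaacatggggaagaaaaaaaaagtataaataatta
DAL7: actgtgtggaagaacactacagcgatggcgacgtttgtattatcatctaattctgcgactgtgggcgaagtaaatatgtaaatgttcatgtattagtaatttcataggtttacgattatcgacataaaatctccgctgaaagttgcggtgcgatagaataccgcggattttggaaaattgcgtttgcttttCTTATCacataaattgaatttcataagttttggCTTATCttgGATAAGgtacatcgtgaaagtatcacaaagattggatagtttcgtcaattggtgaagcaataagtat
DAL2: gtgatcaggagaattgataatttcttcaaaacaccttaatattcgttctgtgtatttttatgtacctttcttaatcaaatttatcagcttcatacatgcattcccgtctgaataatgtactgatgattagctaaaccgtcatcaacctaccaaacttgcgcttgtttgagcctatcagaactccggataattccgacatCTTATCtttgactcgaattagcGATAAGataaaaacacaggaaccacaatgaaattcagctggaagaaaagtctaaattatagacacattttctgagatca
DAL3: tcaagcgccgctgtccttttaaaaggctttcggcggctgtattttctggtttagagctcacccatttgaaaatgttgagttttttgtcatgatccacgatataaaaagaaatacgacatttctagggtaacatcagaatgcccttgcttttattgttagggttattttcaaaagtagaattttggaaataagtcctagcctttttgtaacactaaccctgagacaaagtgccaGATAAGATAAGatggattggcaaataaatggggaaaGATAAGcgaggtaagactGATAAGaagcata
The motif occurred 2 times in the window of DAL4, 3 times in that of DAL7, 2 times in that of DAL2 and 4 times in that of DAL3, where 2 matches share letters. DAL1 and DCG1 also had 2 each, so all 6 windows held at least 2, against 4.66% of the 193 windows of positioned members and 1.47% of the 6001 windows of R64. The window of DAL7 reaches into the coding part of DAL3. The number of matches did not separate the high genes from the low ones in this cluster, and none of the windows of the 10 members with the largest shifts held one. The Gcn4 motif TGACTC was present in 10.9% of the members' windows and in 8.47% of all windows.

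Between the strains that were not raised, LP104-17 and LP085-Vc, members were called about as often at 24 h as genes of the whole table. A gene is called, and said to have risen or fallen, at an edgeR adjusted p below 0.05. This comparison played no part in choosing the chromosome. At 24 h, 48 members rose and 62 fell in LP104-17 relative to LP085-Vc, together 51.9% of the members, beside 52.6% of all tested genes (25.1% higher and 27.4% lower). Tested as log2(FPKM + 1), 59 were higher and 42 lower, so the direction of the split depends on the scaling. The split of all tested genes on that scale is not given here. For counts, the median log2 fold change of the members was -0.09, against -0.05 over all tested genes. At 6 h, 8 members rose and 12 fell, together 9.43%, beside 11.5% of all tested genes (5.79% higher and 5.76% lower), with a median of -0.01 against 0.00. The 6 h count of 20 ran from 13 without LP085-Vc 6 h replicate 2 to 31 without LP104-17 6 h replicate 2, and was 13 in a fit to the compared groups alone.

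The largest changes given below are limited to called members that averaged 10 CPM or more on the higher side and whose libraries did not overlap. Some members with few counts had larger fitted values. In LP104-17 at 24 h these rises were those of UTP25 (log2 fold change 2.41 ± 0.12 SE, edgeR adjusted p = 4.54e-12), YVH1 (2.32 ± 0.18), RPS24B (2.19 ± 0.13) and RPL16A (1.95 ± 0.11). YVH1 encodes a phosphatase needed for late maturation of the large subunit. All 5 ribosomal protein members and all 7 of ribosome biogenesis rose, beside 25.1% of all tested genes. Under the same limits the largest falls were those of YIL055C (-1.32 ± 0.17), PIG2 (-1.10 ± 0.10), VLD1 (-1.07 ± 0.18) and YIA6, a mitochondrial NAD carrier gene (-1.001 ± 0.146). In the list of stress, storage and respiratory growth 2 members rose and 10 of 13 fell, where 27.4% of all tested genes fell. At 6 h, under these limits, MET28, a cofactor of sulfur gene activation, fell by 1.52 ± 0.26 (edgeR adjusted p = 0.000428), followed by PIG2 (-0.75 ± 0.10), SER33 (-0.63 ± 0.08) and YAP5 (-0.60 ± 0.10). AIR1 rose by 0.70 ± 0.10 (edgeR adjusted p = 7.06e-05), with YIL165C (0.65 ± 0.17), UTP25 (0.62 ± 0.11) and NRE1 (0.55 ± 0.10). The call of YIL165C was lost when LP104-17 replicate 3 or LP085-Vc replicate 2 or 3 at 6 h was left out.

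Over time, members changed in each strain in about the same number as genes elsewhere. In LP118, 67 members rose and 60 fell at 24 h relative to 6 h, together 59.9%, beside 57.1% of all tested genes (26.6% higher and 30.5% lower). Tested as log2(FPKM + 1), 80 were higher and 32 lower, so the split depends on the scaling. The split of all tested genes on that scale is not given here, and 80 against 32 is not read as a trait of the members. In LP104-17, 75 rose and 74 fell (70.3%, beside 70.9% of all genes, 35.2% higher and 35.7% lower), and in LP085-Vc, 91 rose and 82 fell (81.6%, beside 76.2%, 37.9% higher and 38.3% lower). The median log2 fold changes of the members were -0.05, 0.06 and 0.06 in LP118, LP104-17 and LP085-Vc.

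Under the limits given above, the largest rises in LP104-17 and LP085-Vc were those of RGI2, OM45, MET30 and XBP1. RGI2 rose by 8.97 ± 0.25 in LP085-Vc and by 8.88 ± 0.27 in LP104-17 (edgeR adjusted p = 1.3e-16 and 3.58e-16), against the few counts at 6 h given above. OM45 rose by 3.71 ± 0.08 in LP085-Vc and by 3.43 ± 0.08 in LP104-17. Under the same limits GPP1 and QDR2 had the largest falls, with -3.71 ± 0.11 and -3.14 ± 0.11 in LP085-Vc and -3.38 ± 0.11 and -2.81 ± 0.11 in LP104-17. THS1, threonyl-tRNA synthetase, and RPL2B came next in LP085-Vc (-2.90 ± 0.11 and -2.85 ± 0.14), and POR2 and FLX1 in LP104-17 (-1.99 ± 0.11 and -1.88 ± 0.19).

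In LP118 the largest rises under these limits were those of MET28 (3.36 ± 0.30, edgeR adjusted p = 1.59e-08), SGA1, a sporulation glucoamylase (2.35 ± 0.19), DAL1 (2.01 ± 0.18) and RPI1 (1.91 ± 0.11). In the allantoin cluster 5 of 6 members rose in LP118, beside 26.6% of all tested genes, and the change of DCG1 (0.55 ± 0.24) did not pass. Under these limits the largest falls were those of YIL142C-A (-1.80 ± 0.54), GPP1 (-1.53 ± 0.10), YIL020C-A (-1.44 ± 0.29) and THS1 (-1.14 ± 0.10). YIL142C-A and YIL020C-A have no R64 RefSeq entry, and the call of YIL142C-A was lost without LP118 replicate 2 at 24 h and on the scale of log2(FPKM + 0.1). All 5 ribosomal protein members fell with time in every strain, with median log2 fold changes of -0.69 in LP118, -0.71 in LP104-17 and -2.35 in LP085-Vc. Of all tested genes, 30.5%, 35.7% and 38.3% fell in LP118, LP104-17 and LP085-Vc.

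**Figure D5:**
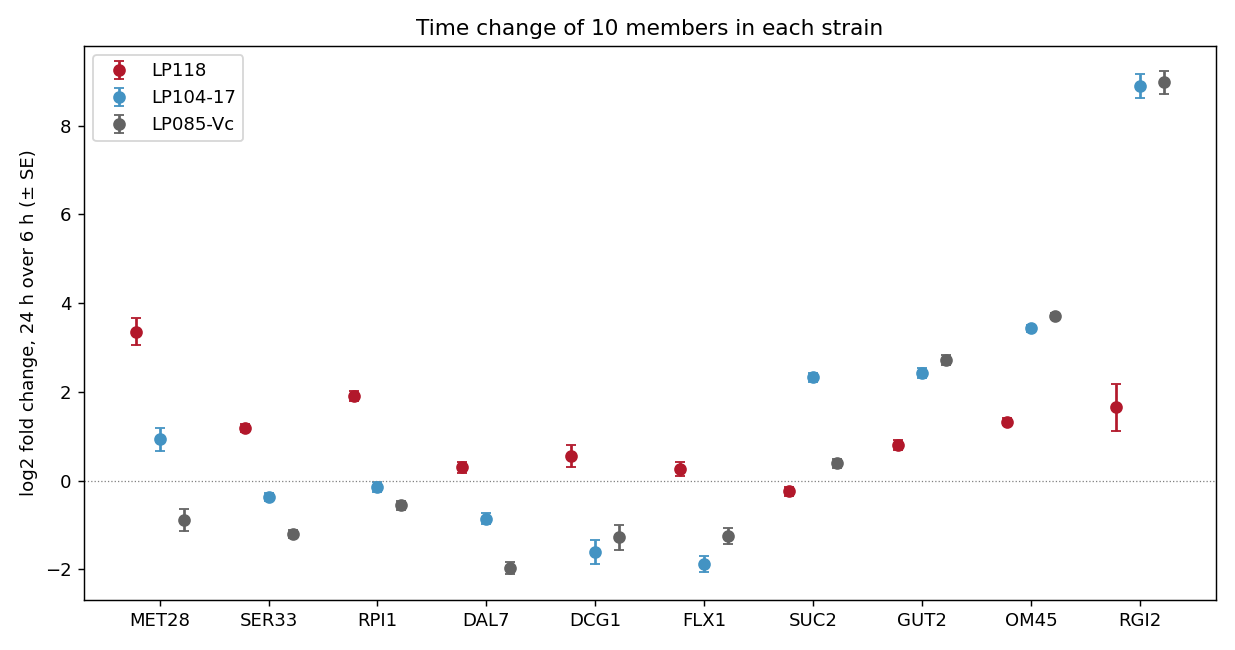
Log2 fold change at 24 h over 6 h with its SE for 10 members in LP118 (red), LP104-17 (blue) and LP085-Vc (grey). MET28, SER33 and RPI1 are above 1 in LP118 and below 1 in the other strains, while RGI2 stands at 1.65 in LP118 and near 9 in the others.

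The time course differed between strains for many members, in both directions, and in shares near those of all tested genes. The time change of LP118 minus that of LP104-17 was called above 0 for 57 members and below 0 for 57, together 53.8%, beside 49.8% of all tested genes (24.5% above and 25.3% below). Against LP085-Vc the counts were 71 and 71, together 67%, beside 60.1% (30.5% and 29.6%). On the scale of log2(FPKM + 1) these splits were 69 and 41, and 84 and 45. For LP104-17 minus LP085-Vc, 32 members were above 0 and 35 below (31.6%, beside 33.1%, 17.8% above and 15.3% below), or 39 and 25 on the scale of log2(FPKM + 1). On that scale the median of all tested genes was 0.24 in the difference between LP118 and LP085-Vc and 0.13 in that between LP118 and LP104-17, against 0.00 and -0.01 for counts, so that splits move with the scaling. Shares of all tested genes called on that scale are not given here, so these splits are not read as traits of the members.

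MET28 had 52.9, 42.9 and 34.9 CPM in LP118 at 24 h and 3.19, 2.28 and 7.08 CPM at 6 h. In LP104-17 it averaged 18.7 ± 2.2 CPM at 24 h and 9.74 ± 1.2 CPM at 6 h, and in LP085-Vc 15.1 ± 2.9 CPM at 24 h and 28.1 ± 7.8 CPM at 6 h (SD, n = 3). It rose in LP118 and LP104-17 and fell in LP085-Vc. SER33, a phosphoglycerate dehydrogenase of serine synthesis, rose by 1.19 ± 0.08 in LP118 and fell by 0.37 ± 0.08 in LP104-17 and by 1.20 ± 0.08 in LP085-Vc. SUC2 rose by 2.32 ± 0.10 in LP104-17 and by 0.39 ± 0.10 in LP085-Vc, and fell by 0.24 ± 0.10 in LP118 (edgeR adjusted p = 9.94e-14, 0.00118 and 0.0369).

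At the count threshold, the members just inside were YIL156W-A, with a summed count of 197 and a shift of -0.62, and YIL046W-A, with 221 and 0.33. Just outside were YIL032C, with 161 and a shift of 1.28, and YIL054W, with 138 and 2.43. The 10 identifiers left out by name had a median shift of 0.92, from -0.51 for TIR3 to 1.86 for BAR1, and 7 of them were above 0.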

How the data were processed

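RNA-seq libraries of 3 strains at 2 times (3 libraries each, 18 in all) were used. The deposited tables hold, per the file headers, a coding length, a raw read count and an FPKM value for each gene, all made by the authors. The submitters' processing notes name Bowtie2 2.2.5 and build R64. The sources used here do not give the counting tool, annotation or strand setting. Reads of overlapping genes or close copies are therefore uncertain, and 4 members overlap another annotated gene.

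Of the 6600 identifiers, 5917 (89.7%) matched the R64 RefSeq annotation, as did 193 of the 212 members. One edgeR 4.0.16 quasi-likelihood model (R 4.3.3) was fitted to the deposited counts of all 18 libraries with 6 group means, TMM scaling and 12 residual degrees of freedom. filterByExpr (minimum count 10, minimum total 15) kept 6131 genes, among them all 212 members, and removed 469. Calls used two-sided tests with Benjamini-Hochberg adjustment over all tested genes of a comparison, at an adjusted p below 0.05. Biological coefficient of variation was 11.2%. CPM values are TMM-scaled. The fit was tested on simulated data.

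The members and gene lists were chosen with earlier results of these data known, and comparisons of LP118 with other strains at 1 time carry no test. Named genes were members not raised in any LP118 comparison, the 10 largest shifts, the 6 nearest to the median and the 4 largest rises and falls per other comparison. The ends, the genes at the threshold and the list members were named too. Rises and falls needed 10 CPM or more and no overlap between libraries, but overlap was not checked for differences in time change. Alternatives used DESeq2 1.42.0, limma 3.58.1 on log2 FPKM with pseudocounts of 1 and 0.1, other filters and scaling, a replicate block and each library left out. Upstream windows come from the R64 RefSeq genome. Libraries of a group differed by more than sampling noise and none were identical.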

Additional observations from a re-analysis of the deposited data

Results flagged for a closer look

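The change over time was compared between 2 strains by the interaction term of the edgeR model (time change of one strain minus that of the other, log2). The 24 cases below are only the 4 highest and 4 lowest called terms for each pair of strains. They are limited to members with 10 CPM or more in the highest group, without a check of overlap between libraries. Other members were also called. For LP118 minus LP104-17 these were RGI2 (-7.23 ± 0.97 SE, adjusted p = 4.33e-06), SUC2 (-2.57 ± 0.14), FAF1 (-2.17 ± 0.19), OM45 (-2.10 ± 0.10), RPI1 (2.05 ± 0.16), FLX1 (2.14 ± 0.24), DCG1 (2.16 ± 0.37) and MET28 (2.42 ± 0.40). For LP118 minus LP085-Vc they were RGI2 (-7.32 ± 0.96), OM45 (-2.38 ± 0.10), YIL055C (-2.07 ± 0.26), GUT2 (-1.91 ± 0.15), DAL7 (2.27 ± 0.19), SER33 (2.39 ± 0.12), RPI1 (2.47 ± 0.16) and MET28 (4.25 ± 0.39).

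For LP104-17 minus LP085-Vc they were YIL055C (-1.33 ± 0.26), VLD1 (-0.92 ± 0.26, adjusted p = 0.0105), YIA6 (-0.88 ± 0.22), VHR1 (-0.84 ± 0.16), YVH1 (1.90 ± 0.24), RPS24B (1.90 ± 0.17), RRT14 (1.91 ± 0.26) and SUC2 (1.93 ± 0.14). Comparisons with LP118 share its libraries, so the first 2 groups are not independent. FAF1, a factor of pre-rRNA processing, rose by 1.89 ± 0.14 in LP104-17 and did not pass in LP118 (-0.28 ± 0.12, adjusted p = 0.0625).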

How the results depend on the processing

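The 8 counts of members called outside the LP118 strain comparisons stayed within 1.5 times their value under DESeq2, TMM without chromosomes V and IX, no low-count filter, a replicate block, all chromosome IX genes, a summed count of 1800, and both FPKM scales, except where stated. For LP104-17 against LP085-Vc at 6 h, the count of 20 became 13 with a fit to the compared groups alone and ran from 13 (without LP085-Vc 6 h replicate 2) to 31 (without LP104-17 6 h replicate 2). At 24 h it ran from 97 to 112 with a library left out.

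Median log2 fold changes moved by more than the replicate SD in several settings, all with the same sign. On log2(FPKM + 1) and log2(FPKM + 0.1) they were 0.81 and 0.84 over LP104-17 and 0.82 and 0.84 over LP085-Vc at 6 h, and 1.14 and 1.19 over LP085-Vc at 24 h. Over LP104-17 at 24 h the value was 1.06 on log2(FPKM + 0.1). Over LP085-Vc at 24 h it was 0.94 for members with a summed count of 1800 or more and 1.07 with the compared groups alone. With each library left out the medians ran from 0.99 to 1.04 over LP104-17 and 0.97 to 1.08 over LP085-Vc at 24 h, and from 0.92 to 0.96 and 0.87 to 0.94 at 6 h. The count of members not raised ran from 7 to 11.

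The labels do not say that replicate numbers pair the samples. Correlations of same-numbered deviations ran from -0.38 to 0.65, and in no comparison were all above 0.1. With 3 libraries per group they cannot decide whether samples were paired. With the replicate block, 108 members were called for LP104-17 against LP085-Vc at 24 h and 19 at 6 h, 126 over time in LP118, 151 in LP104-17 and 174 in LP085-Vc, and 111, 141 and 62 for the 3 differences in time change, with 9 not raised. Of 64 tested values of named members, none reversed and 5 of 1600 alternatives lost the call. RGI2 had 2 to 6 counts per library in LP118 at 6 h, and EMA17 3 to 13.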
